A study of Mus musculus with 20 samples.

Results

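The livers of 15 mice fed a high-fat diet (HFD) were compared, as 1 group, with the livers of 5 mice fed chow. These are all 20 mice of the series, and they were placed in their group by the diet in the sample labels and by no measured value. All were female C57BL/6J mice, an inbred strain, that entered the study at 8 weeks of age and were 28 weeks old at the time of sampling. Chow-fed mice ate chow throughout, while the HFD-fed mice ate HFD for 10 weeks and then, for another 10 weeks, an HFD of equal energy in which 50% of the protein came from fishmeal made of salmon by-products (5 mice), from salmon filet (6 mice by label) or from beef (4 mice). The diet of mouse 31 is salmon filet in its label and beef in the header of the count table, which leaves the pooled HFD group as it is. Counted as beef, it would make all HFD groups equal in size, as the methods of the study describe them, but the label was followed here. Chow and HFD also differ in ingredients other than fat, and every HFD-fed mouse ate fish or beef protein, so these parts of the diet cannot be told apart here. Cholesterol synthesis, T and B cells, cytochrome P450 enzymes and the circadian clock are left aside, except where their values bear on another result.

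The liver takes up dietary fat, sugar and amino acids and directs them to storage, oxidation or secretion. Lipid synthesis is driven largely by the transcription factor SREBP-1, encoded by Srebf1, and oxidation by the nuclear receptor PPAR-alpha. Hepatocytes also make most plasma proteins, including the acute phase proteins that rise with inflammatory signals, and they conjugate hormones, bile acids and foreign compounds for export. In rodents, the pattern of growth hormone release sets which hepatic genes are expressed more in males and which more in females.

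Between 42526234 and 70266136 reads per library were counted on genes. None of the 12 hepatocyte markers was called, with 3 at an unadjusted p under 0.05, and they summed to between 129112 and 149882 CPM (read counts scaled to the same library total) in chow-fed mice and between 119568 and 152805 in HFD-fed mice. The share of counts on protein coding genes was 84.34% in beef mouse 35 and 93.16% to 95.56% elsewhere. A clock score, the mean log2 CPM of Arntl, Npas2, Clock, Cry1 and Nfil3 minus that of Dbp, Tef, Hlf, Nr1d1, Nr1d2, Per2, Per3 and Ciart, averaged 2.07 ± 0.806 (SD, n = 5) in chow-fed mice and -0.92 ± 1.71 (SD, n = 15) in HFD-fed mice (exact permutation test, two-sided, p = 0.00168, adjusted p = 0.0084 over 5 measures of the libraries). The ranges overlapped, from 0.788 to 2.697 and from -3.634 to 1.804. The other 4 measures, which were the shares of mitochondrial, protein coding and most abundant transcripts and the number of genes detected, had adjusted p-values from 0.399 to 0.872.

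Counts were tested with edgeR's quasi-likelihood test, and genes were called where the p-value, adjusted after Benjamini-Hochberg for all 17120 genes, stayed under 0.05. In HFD-fed mice, 1415 of 13702 protein coding genes were called, which is 10.3%, with 649 higher (4.74%) and 766 lower (5.59%). Most of these changes were small, with a median size of 0.51 on the log2 scale, 809 genes under 1.5-fold and 251 at 2-fold or more. A test for changes beyond 1.5-fold called 89 genes (0.65%), of which 31 were higher and 58 lower. The 2 directions were spread unevenly over expression levels. In the lowest quartile of mean CPM, 84 genes were higher and 193 lower, and in the highest quartile, from a mean of 34.5 CPM upwards, 240 were higher and 149 lower. Among 3418 genes of other biotypes 254 were called (7.43%), 128 higher and 126 lower. Omitting chow mouse 1, 7 or 2 lowered the count of protein coding genes to 816, 877 or 916, and 579 of the 1415 genes were called whichever of the 20 mice was omitted. With the clock score as a covariate, 196 of the 1415 genes were called and 1405 had the same sign. The score itself differed between chow-fed and HFD-fed mice, so diet and clock phase cannot be told apart in this fit. Part of a diet difference can be taken up by the score, and a lost call does not assign a change to either. Of 60 gene lists described below 53 held a call, and 25 of these held 0 in that fit. The count of calls in each list is to be read beside the 10.3% of all protein coding genes that were called.

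**Figure D1:**
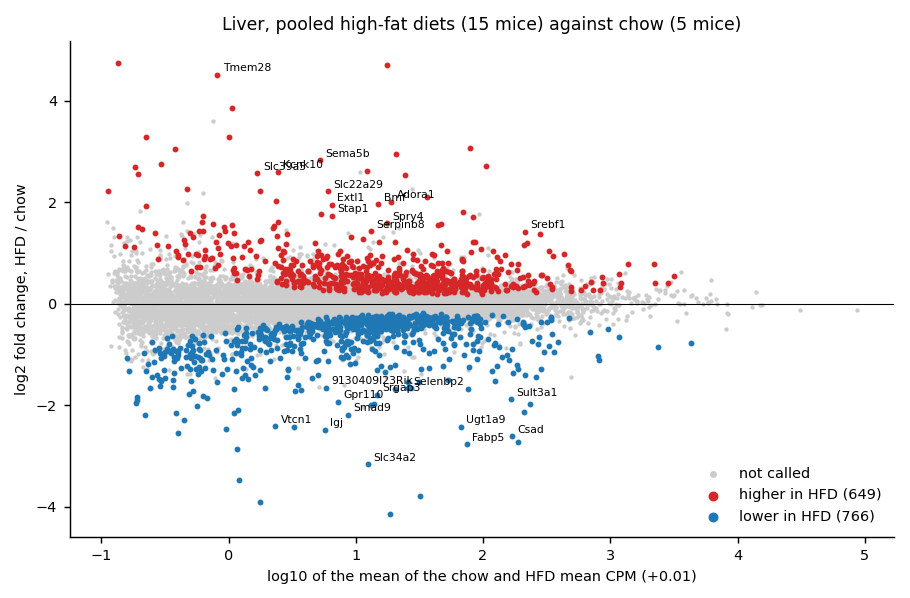
Each point is a protein coding gene, with the mean of its chow and HFD mean CPM on a log axis and its log2 fold change in HFD-fed against chow-fed mice. The 649 genes called higher are red, the 766 called lower are blue and all others are grey. Labelled are the 12 with the largest change in each direction among those called without overlap between the groups, such as Slc34a2 at -3.16 and Sema5b at 2.83. Labelled genes have a mean CPM of at least 1 and lie outside the left-aside lists.

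The most separated genes included transporters, signalling proteins and enzymes of lipid and sulfur metabolism. Of 11565 protein coding genes whose mean CPM was 1 or more, 212 (1.83%) were called with no overlap between the groups, 98 higher and 114 lower. Slc34a2, a sodium-phosphate cotransporter (chromosome 5 of GRCm38), had 23 CPM, 21.2, 17.1, 25.1 and 26.1 in the 5 chow-fed mice and between 1.21 and 4.55 in the HFD-fed mice, with a median of 2.48. All 15 HFD-fed mice lay below all chow-fed mice, with the log2 fold change being -3.16 (SE 0.194, adjusted p = 8.72e-10 with edgeR). The intracellular fatty acid carrier Fabp5 had 80.3 CPM, 210, 94.9, 180 and 82.1 in chow-fed mice against 4.86 to 50.2 (median 14.8) in HFD-fed mice, the log2 fold change being -2.77 (SE 0.395, adjusted p = 0.000108). Csad, which decarboxylates cysteine sulfinic acid on the way to taurine, had 244 CPM, 407, 360, 219 and 212 in chow-fed mice and 11 to 103 (median 47.1) in HFD-fed mice, the log2 fold change being -2.61 (SE 0.318, adjusted p = 1.67e-05). Csad overlaps Zfp740 on the other strand. Also lower without overlap were Vtcn1, a ligand that restrains T cells (-2.41), Smad9, a SMAD of bone morphogenetic protein signalling (-2.19), the adhesion receptor gene Gpr110 (-1.93), Srgap3, a regulator of small GTPases (-1.79), and 9130409I23Rik (-1.65), with adjusted p-values from 3.93e-07 for Gpr110 to 0.00108 for 9130409I23Rik.

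The genes that were higher in all 15 HFD-fed mice than in any chow-fed mouse were led by a gene that was nearly silent on chow. Tmem28 had 0.0763 CPM, 0, 0.0174, 0 and 0.227 in chow-fed mice and 0.486 to 3.28 (median 1.54) in HFD-fed mice, so that its fitted log2 fold change of 4.51 (SE 0.613, adjusted p = 5.8e-05) depends on few counts and was 5.80 without chow mouse 10. Sema5b, a semaphorin, had 0.931 CPM, 0.607, 1.57, 0.722 and 2.52 in chow-fed mice and 4.77 to 13.5 (median 9) in HFD-fed mice, the log2 fold change being 2.83 (SE 0.322, adjusted p = 6.13e-06). The groups did not overlap for either gene. Adora1, the adenosine A1 receptor, rose from 5.48 to 9.78 CPM in chow-fed mice to 18.1 to 49.6 (median 31.7), the log2 fold change being 2.01 (SE 0.232, adjusted p = 7.6e-06). The potassium channel gene Kcnk10 (2.60), the zinc importer Slc39a5 (2.57), the organic anion transporter family member Slc22a29 (2.22), the pro-apoptotic Bmf (1.96), the heparan sulfate glycosyltransferase Extl1 (1.95), the adaptor Stap1 (1.74), Spry4, an inhibitor of growth factor signalling (1.59), and the intracellular serpin Serpinb8 (1.43) also rose, with adjusted p-values from 3.65e-07 for Serpinb8 to 0.000488 for Bmf. For Bmf the gap was narrow, with 9.3 CPM in the highest chow-fed mouse and 9.31 in the lowest HFD-fed mouse. Slc22a29 is 96.8% identical to Slc22a27 over 2088 bases, so counting could have moved reads between them. Slc39a5, with a mean of 0.483 CPM in chow-fed and 2.87 in HFD-fed mice, overlaps Ankrd52 (mean 43.9 CPM) on the other strand. Each of the 24 labelled genes was called in all 20 fits that left out 1 mouse.

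**Figure D2:**
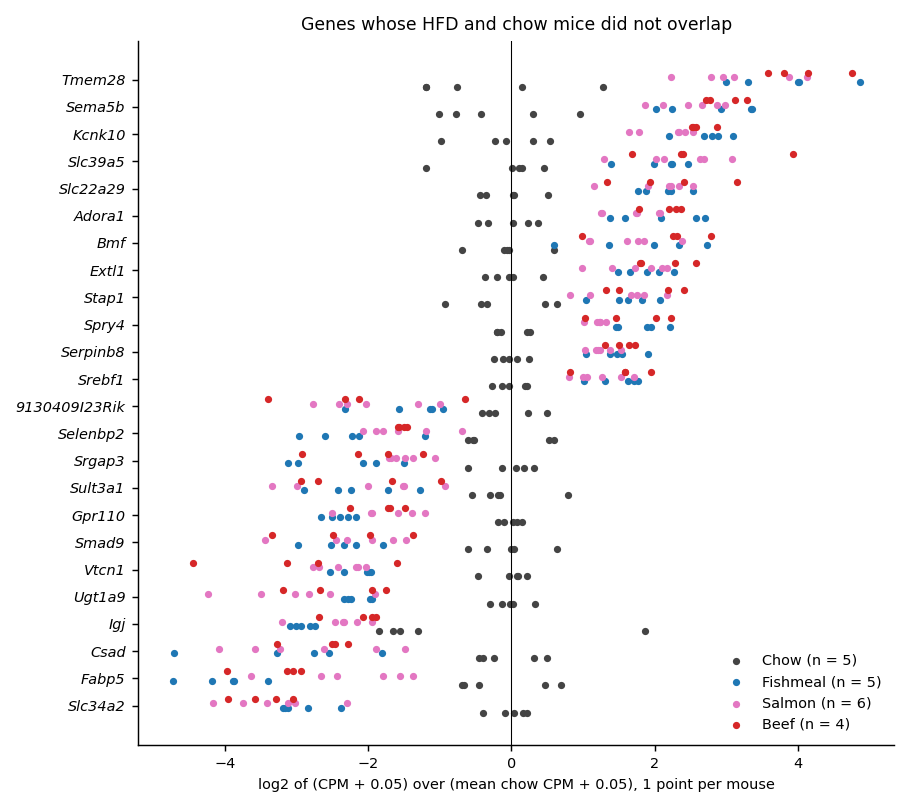
Each row is 1 of the 24 genes with the largest change without overlap, and each point is a mouse, placed by its log2 ratio of CPM to the chow mean with 0.05 added to both. Selection required that in every row the 15 HFD-fed mice lie to a single side of the 5 chow-fed mice. The gap is narrowest for Bmf (9.3 against 9.31 CPM).

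Lipid genes moved in several directions. Srebf1, which encodes SREBP-1, rose from 106 CPM, 132, 135, 113 and 96.1 in chow-fed mice to between 202 and 447 (median 334) in HFD-fed mice, with no overlap (log2 fold change 1.42, SE 0.177, adjusted p = 2.22e-05 with edgeR). Of 19 tested genes of fatty acid synthesis and desaturation, Srebf1 was the only one called higher and 4 were called lower, with a median log2 fold change of -0.16 beside 0.005 over all genes. Acss2, which makes acetyl-CoA from acetate, had 491 CPM, 565, 247, 496 and 207 in chow-fed mice and 56.2 to 352 (median 140) in HFD-fed mice, with overlap in 5 of 15 HFD-fed mice (log2 fold change -1.29, SE 0.349, adjusted p = 0.0206). The elongase Elovl3 (-1.04) and the desaturase Scd2 (-0.91) fell as well, as did Elovl1 (-0.41), named after its values were seen. Scd2 is 95.5% identical over 623 bases to Scd1, which is far more abundant. The first 3 of these calls depended on single mice. Acss2 was not called without chow mouse 1, 2 or 7 (adjusted p 0.066 to 0.0779), Elovl3 without chow mouse 1, 5 or 10 (0.0783 to 0.144) and Scd2 without chow mouse 7 (0.0826), and the list held 3 calls without chow mouse 1 or 7. With the clock score as a covariate 1 gene of the list was called higher, Srebf1, and 0 lower.

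Genes of fat storage and uptake were mostly higher where they were called, but the storage lists were near the background. The share called was 12.5% for triglyceride and phospholipid synthesis, 12.5% for lipid droplet proteins and 25% for fatty acid uptake. Of all protein coding genes 10.3% were called. For triglyceride and phospholipid synthesis 3 of 24 genes were higher and 0 lower, among them the acyltransferases Agpat9 (log2 fold change 0.72, adjusted p = 0.00704) and Dgat2 (0.56, adjusted p = 0.0259). Of 16 lipid droplet proteins 2 were higher, Plin3 (0.53, adjusted p = 0.00544), which coats droplets, and Fitm1 (0.99, adjusted p = 0.0175), which helps to form them. Dgat2 and Fitm1 were not called without chow mouse 1, 2 or 7 (adjusted p 0.0587 to 0.107), when each list held 1 call, and the droplet list held 4 without chow mouse 10. Both lists held 0 calls in the fit with the clock score as a covariate, the adjusted p-values being 0.167 for Agpat9, 0.679 for Dgat2, 0.372 for Plin3 and 0.212 for Fitm1. Among 20 genes of fatty acid uptake, binding and activation 3 were higher and 2 lower. Fabp2, the intestinal-type fatty acid carrier, had 59.2 CPM, 45.4, 56.3, 32 and 68.1 in chow-fed mice and 73.2 to 145 (median 130) in HFD-fed mice, without overlap (log2 fold change 1.21, SE 0.164, adjusted p = 5.63e-05). The fatty acid translocase Cd36 had 110 CPM, 65.5, 118, 76.5 and 138 against 84.8 to 278 (median 196), and 14 of 15 HFD-fed mice lay above all chow-fed mice (0.96, SE 0.203, adjusted p = 0.00391). Acsl4, an acyl-CoA synthetase that favours arachidonic acid, fell (-0.82, adjusted p = 0.000618). Hence within the carrier family Fabp2 rose while Fabp5 fell. Fabp2, Cd36 and Fabp5 were called in the covariate fit and Acsl4 was not (adjusted p = 0.113).

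Oxidation genes were shifted by little. In a list of 29 genes of fatty acid oxidation and ketogenesis, 28 had a positive log2 fold change with a median of 0.25, but only the ketone body enzyme Bdh1 was called (0.57, adjusted p = 0.0182), and it was not called without chow mouse 1, 2 or 7 (adjusted p 0.0664 to 0.0788). In this list 13 genes had an unadjusted p under 0.05, DESeq2 called 6 and the covariate fit called 0, while leaving out chow mouse 5 or 10 gave 5 calls, beef mouse 35 gave 4, beef mouse 32 gave 3 and fishmeal mouse 16 or salmon mouse 22 or 23 gave 2. Of 17 further targets of PPAR-alpha 1 was higher and 1 lower, with 1 call left without chow mouse 1, 2 or 7 and 0 in the covariate fit. Pdk4 encodes a kinase that inhibits the pyruvate dehydrogenase complex, and it typically rises with fasting. Pdk4 had 50.6 CPM, 48.1, 45.1, 45.1 and 41.6 in chow-fed mice and 7.64 to 40.1 (median 14.7) in HFD-fed mice. The groups did not overlap (log2 fold change -1.29, SE 0.318, adjusted p = 0.0119), while with the clock score as a covariate it was -0.44 (adjusted p = 0.643). Pantetheinase Vnn1 rose (1.08, adjusted p = 0.0156), and was not called without chow mouse 1, 2 or 7 (adjusted p 0.0509 to 0.064). Among 24 genes of lipoprotein handling the sorting receptor Sort1 alone was called (-0.73, adjusted p = 0.00834, and 0.0538 without chow mouse 2), with 0 calls in the covariate fit. The 17 peroxisome biogenesis genes and the 80 nuclear oxidative phosphorylation subunits had 0 calls with edgeR, with 5 and 6 genes at an unadjusted p under 0.05 and 0 and 1 calls with DESeq2.

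Of 38 genes of glycolysis, gluconeogenesis and glycogen 6 were higher and 2 lower, a share of 21.1% called beside 10.3% of all protein coding genes. Pcx, which carboxylates pyruvate, had 208 CPM, 405, 490, 304 and 458 in chow-fed mice and 350 to 896 (median 593) in HFD-fed mice, with 12 of 15 above all chow-fed mice (log2 fold change 0.66, SE 0.19, adjusted p = 0.0291). Pfkfb3, whose product raises fructose 2,6-bisphosphate, had 13.3 CPM, 12.6, 8.96, 8.24 and 8.32 against 4.47 to 8.48 (median 5.63), and 14 of 15 HFD-fed mice lay below all chow-fed mice (-0.84, SE 0.139, adjusted p = 0.000435). Ppp1r3c, a subunit that targets a phosphatase to glycogen, was lower (-0.85, adjusted p = 0.0282). In the pentose phosphate pathway 1 of 10 genes was called, G6pdx (-1.0, adjusted p = 0.0139), for which no HFD-fed mouse lay below all chow-fed mice. G6pdx overlaps Ikbkg (mean 66.2 CPM) on the other strand. Calls were lost without chow mouse 1 or 7 for G6pdx (adjusted p = 0.0811 and 0.0877), without chow mouse 1 or 2 for Ppp1r3c (0.127 and 0.0694) and without chow mouse 1, 2 or 7 for Pcx (0.0575 to 0.112). The list held 2 calls without chow mouse 1 or 2, 3 without chow mouse 7 and 5 without chow mouse 10 or fishmeal mouse 14 or 20, and with the clock score as a covariate Pfkfb3 was its only call (-1.12, adjusted p = 0.00163) and the median log2 fold change of the list turned from 0.13 to -0.04.

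Hormone signalling genes showed 3 higher and 4 lower calls among 32 genes, a share of 21.9% beside 10.3% of all protein coding genes. Socs2, a feedback inhibitor that growth hormone induces, had 47.4 CPM, 38.3, 44.1, 56.5 and 46.4 in chow-fed mice and 9.98 to 27.2 (median 14.6) in HFD-fed mice, with no overlap (log2 fold change -1.53, SE 0.167, adjusted p = 4.03e-06 with edgeR). The covariate fit gave -1.51 for Socs2 (adjusted p = 0.00205). Igfbp2, a circulating binding protein of insulin-like growth factors, had 122 CPM, 206, 201, 196 and 230 against 33.7 to 148 (median 85.5), and 10 of 15 HFD-fed mice lay below all chow-fed mice (-1.05, SE 0.239, adjusted p = 0.00675). The pseudokinase Trib3 rose (1.04, adjusted p = 0.0484) and the leptin receptor Lepr fell (-0.97, adjusted p = 0.0385), but Trib3 was called in 6 and Lepr in 11 of the 20 fits that left out 1 mouse, with adjusted p-values up to 0.152 without chow mouse 1 and 0.159 without chow mouse 7. The list held 4 calls without chow mouse 1, 2 or 10, and Socs2 alone with the covariate.

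Genes with a male bias in mouse liver were lower with HFD. Of 12 tested, 7 were lower (58.3%, beside 5.59% of all protein coding genes) and 0 higher. The median log2 fold change was -0.81, and 11 of the 12 were negative. Slco1a1, an organic anion transporter, had 111 CPM, 78.7, 71, 15 and 19.6 in chow-fed mice and 0.188 to 30.4 (median 1.28) in HFD-fed mice (log2 fold change -3.78, SE 0.746, adjusted p = 0.00219). Beef mouse 35, at 30.4 CPM, was the only HFD-fed mouse within the chow range, and without it the log2 fold change was -4.57. Selenbp2, a selenium-binding protein, had 25.7 CPM, 56.6, 59.4, 27.1 and 27.2 against 4.99 to 24.4 (median 13), without overlap (-1.66, SE 0.25, adjusted p = 0.000181). Serpina1e, an alpha-1-antitrypsin gene, had 183 CPM, 363, 904, 58.4 and 135 against 19.6 to 233 (median 30.4), with overlap in 3 of 15 HFD-fed mice (-2.72, SE 0.502, adjusted p = 0.00124, and -1.89 without chow mouse 5). Both have close copies: Selenbp2 is 98.5% identical to Selenbp1 over 1712 bases, and Serpina1e is 96.1% to 96.5% identical to 4 other Serpina1 genes. These 4 are more abundant (means from 759 to 4480 CPM), so counting could have moved reads between the copies. The 6 Serpina1 genes together took 0.712% to 1.05% of the counts in chow-fed mice and 0.645% to 1.08% in HFD-fed mice, which overlap. Serpina1e is a small part of that sum. The other called members were Elovl3 and, named after their values were seen, the steroid dehydrogenase Hsd3b5 (-2.29), Susd4 (-0.91) and the glutathione transferase Gstp1 (-0.60). The number of calls in the list was 4 without chow mouse 1 and 5 with the clock score as a covariate.

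Genes with a female bias were split, with 2 of 12 higher, 2 lower and a median log2 fold change of -0.08. The neurotrophin receptor gene Ntrk2 had 15.6 CPM, 23.9, 2.02, 17.3 and 9.78 in chow-fed mice and 16.9 to 144 (median 51.9) in HFD-fed mice (log2 fold change 2.11, SE 0.487, adjusted p = 0.00754). Hao2, a peroxisomal hydroxy acid oxidase, rose (1.56, adjusted p = 0.0012), with 14 of 15 HFD-fed mice above all chow-fed mice. Sult3a1, a sulfotransferase, had 233 CPM, 212, 448, 178 and 228 in chow-fed mice and 25.6 to 137 (median 64.8) in HFD-fed mice, without overlap (-1.88, SE 0.307, adjusted p = 0.000392).

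Amino acid catabolism moved upwards by small amounts. Of 46 tested genes 9 were higher (19.6%, beside 4.74% of all protein coding genes) and 0 lower. Of the 46, 36 were positive, with a median log2 fold change of 0.20 beside 0.005 over all genes. Agxt2, a mitochondrial aminotransferase, had 109 CPM, 89.9, 103, 84.5 and 98.5 in chow-fed mice and 106 to 183 (median 144) in HFD-fed mice, with 14 of 15 above all chow-fed mice (0.58, SE 0.105, adjusted p = 0.00105). Tdo2, the entry step of tryptophan breakdown (0.59, adjusted p = 0.023), the alanine aminotransferase Gpt (0.56, adjusted p = 0.0212) and Hoga1 of hydroxyproline breakdown (0.35, adjusted p = 0.02) were also higher. Tdo2 was not called without chow mouse 2, 5, 7 or 10 (adjusted p 0.0503 to 0.0748), Gpt without chow mouse 1, 2 or 7 (0.0533 to 0.0813) and Hoga1 without chow mouse 2 or 7 (0.0585 and 0.0616). The list held 2 calls without chow mouse 2 or 7, 4 without chow mouse 1, and 2 with the clock score as a covariate, where Agxt2 stayed called (0.62, adjusted p = 0.0173). Of 15 urea cycle and ammonia genes 1 was higher (6.67%, beside 4.74% of all protein coding genes). It was the amino acid transporter Slc38a4 (0.41, adjusted p = 0.017, and 0.0631 and 0.0602 without chow mouse 2 and 7). In serine, methionine and one-carbon metabolism 1 of 30 genes was lower, Csad, and 1 higher, Nnmt, which methylates nicotinamide (0.80, adjusted p = 0.0458), called in 7 of the 20 fits that left out 1 mouse and at 0.141 without chow mouse 2.

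Conjugating enzymes moved in both directions. Of 22 glutathione transferases 7 were lower and 2 higher, with a median log2 fold change of -0.38. The share called was 40.9%, beside 10.3% of all protein coding genes. Gstm4 had 89.6 CPM, 102, 83.9, 93 and 94.1 in chow-fed mice and 38.9 to 73.5 (median 51.7) in HFD-fed mice, without overlap (-0.80, SE 0.121, adjusted p = 0.000212). The abundant Gstm1 had 1596 CPM, 1502, 1263, 1616 and 1193 against 626 to 1486 (median 867), with 13 of 15 below all chow-fed mice (-0.66, SE 0.147, adjusted p = 0.00623). Gsta2 (-1.68, adjusted p = 0.00575) and Gstm3 (-1.50, adjusted p = 0.000848) fell further. All 24 transferase genes together took 0.596% to 0.727% of the counts in chow-fed mice and 0.405% to 0.703% in HFD-fed mice, with 11 of 15 below all chow-fed mice. Between 7 and 10 members were called when single mice were left out, and 1 with the clock score as a covariate.

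Of 16 UDP-glucuronosyltransferases, which attach glucuronic acid to bilirubin, hormones and foreign compounds, 3 were lower and 1 higher. Ugt1a9 had 141 CPM, 114, 91.1, 111 and 102 in chow-fed mice and 5.91 to 33.2 (median 22.2) in HFD-fed mice, without overlap (log2 fold change -2.42, SE 0.243, adjusted p = 1.27e-06). Ugt1a6b had 39.2 CPM, 27.6, 40.9, 27.6 and 34.7 against 41.7 to 69.1 (median 53.1), also without overlap and in the other direction (0.65, SE 0.117, adjusted p = 0.000982). The genes of the Ugt1a cluster share their last exons, so reads in those exons cannot be assigned to a single gene, and the 9 Ugt1a genes together took 0.0654% to 0.0826% of the counts in chow-fed and 0.0508% to 0.0684% in HFD-fed mice. Ugt2b37 was lower (-1.12, adjusted p = 0.00474). Without fishmeal mouse 16 the list held 7 calls.

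Among sulfotransferases 3 of 13 were higher and 2 lower, with 11 positive and a median log2 fold change of 0.62. Estrogen sulfotransferase Sult1e1 was near 0 in chow-fed mice, with 0.0328 to 0.331 CPM, and reached 0.0702 to 11 (median 1.02) in HFD-fed mice, with 13 of 15 above all chow-fed mice (3.85, SE 1.03, adjusted p = 0.0198). Sult2a3 had 0.519 CPM, 0.853, 4.18, 15.9 and 14.7 against 3.6 to 82 (median 44.9), with overlap in 5 of 15 (2.54, SE 0.773, adjusted p = 0.0386). Sult5a1 fell (-1.30, adjusted p = 0.00262). Sult1e1 was not called without chow mouse 1, 2 or 7 (adjusted p 0.0576 to 0.064), and Sult2a3 was called in 15 of the 20 fits, reaching 0.0993 without chow mouse 1. Without chow mouse 5 the log2 fold change of Sult1e1 was 4.48. The list held 3 calls without chow mouse 1 and 2 without chow mouse 2. In the covariate fit 0 sulfotransferases were called higher and 2 lower, Sult3a1 and Sult5a1, while Sult1e1 and Sult2a3 had adjusted p-values of 0.109 and 0.121. The median of the list was 0.14 with either of the other filters on low counts, and 0.74 with the covariate. Carboxylesterases, which cleave esters and amides, had 3 of 15 genes lower and 1 higher, led by Ces2a with 279 CPM, 243, 222, 193 and 169 in chow-fed mice and 75.3 to 160 (median 122) in HFD-fed mice (-0.89, SE 0.117, adjusted p = 3.98e-05, no overlap). Carboxylesterase calls numbered 2 without chow mouse 2 or 5 and 7 without salmon mouse 23, with Ces2a alone called in the covariate fit. Among 36 aldehyde and alcohol dehydrogenases and aldo-keto reductases 4 were lower and 0 higher, including Akr1c19 (-1.08, adjusted p = 0.000594) and Adh7 (-0.77, adjusted p = 0.00423). Adh7, with a mean of 2.56 CPM in chow-fed and 1.5 in HFD-fed mice, overlaps the antisense gene 0610031O16Rik (mean 42.6 CPM) on the other strand. Of 5 flavin monooxygenases 2 were lower and 0 higher. The fall of Fmo1 was small (-0.28, adjusted p = 0.0359) and was called in 13 of the 20 fits, with 0.134 without chow mouse 7. The covariate fit called 1 of the 36 genes and 0 flavin monooxygenases.

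**Figure D3:**
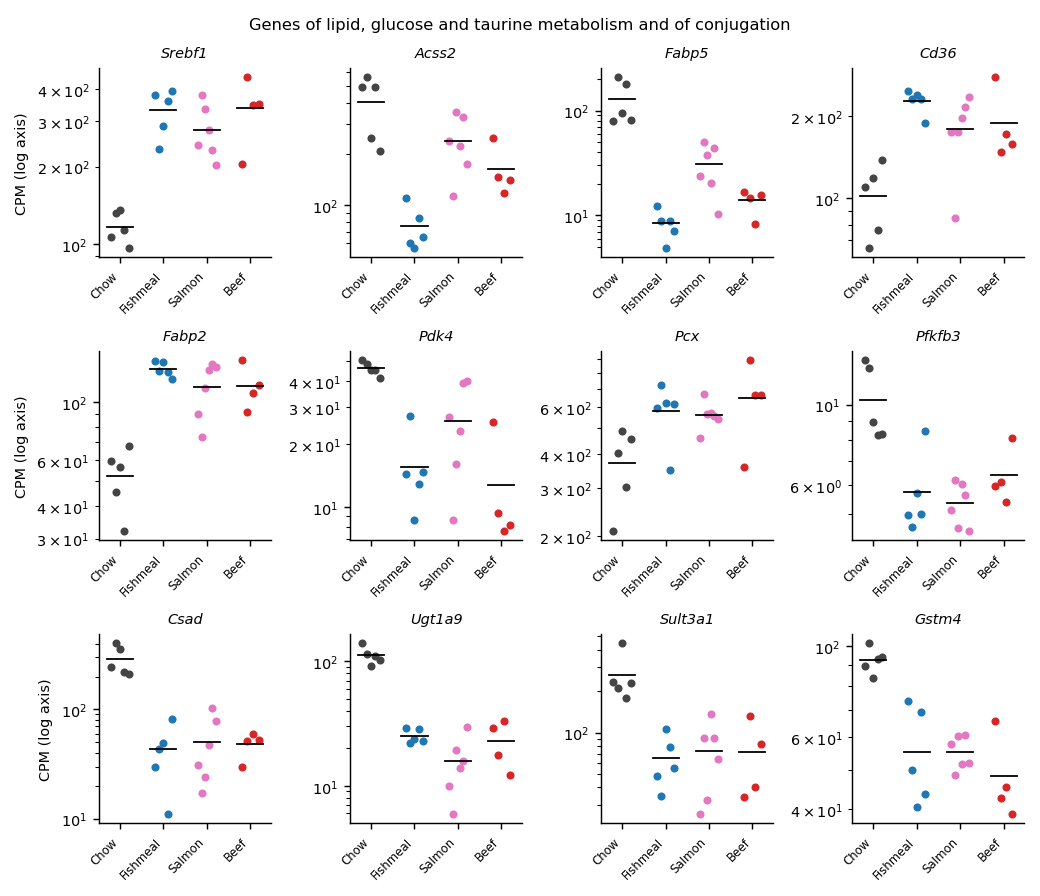
Each panel shows 1 gene of lipid, glucose, taurine or conjugation metabolism, with CPM on a log axis, a point for each mouse and a line at the mean of the group. Points of HFD-fed mice lie wholly above chow for Srebf1 and Fabp2, wholly below for Fabp5, Pdk4, Csad, Ugt1a9, Sult3a1 and Gstm4, and overlap with chow for Acss2, Cd36, Pcx and Pfkfb3.

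Most of the called transporters were higher. Of 274 solute carriers 24 were higher and 10 lower, a share of 12.4% called beside 10.3% of all protein coding genes. All 383 solute carrier genes in the table together took 1.63% to 1.83% of the counts in chow-fed mice and 1.67% to 2.01% in HFD-fed mice, with 9 of 15 above all chow-fed mice. The number of called carriers was 21 without chow mouse 2, 18 without chow mouse 7 and 10 with the clock score as a covariate, 7 higher and 3 lower. Of 38 ABC transporters 5 were higher and 1 lower. Abcg5 and Abcg8 together form the pump that moves sterols into bile, and Abcg8 had 33.5 CPM, 48.4, 69.2, 46.8 and 65.7 in chow-fed mice and 72 to 163 (median 96.4) in HFD-fed mice, without overlap (log2 fold change 1.02, SE 0.196, adjusted p = 0.00187). Its partner Abcg5 rose by a similar amount (0.85, SE 0.161, adjusted p = 0.00149), with 14 of 15 HFD-fed mice above all chow-fed mice. Abcg5 and Abcg8 overlap each other on opposite strands, so counting could have moved reads between them. Abcc4, which exports bile acids and nucleotides into blood, had 6.08 CPM, 7.82, 7.51, 7.85 and 7.43 against 1.98 to 5.53 (median 4.13), lower without overlap (-0.92, SE 0.184, adjusted p = 0.00255). With the clock score as a covariate 0 ABC transporters were called, and the log2 fold changes were 0.59 for Abcg8, 0.54 for Abcg5 and -0.80 for Abcc4. Of 22 bile acid genes outside the P450 family 1 was higher, the FGF coreceptor Klb (0.33, adjusted p = 0.0415, called in 13 of the 20 fits and 0.16 without chow mouse 1), and 2 were lower, Slco1a1 and Abcc4, with 5 calls without chow mouse 5, fishmeal mouse 16 or beef mouse 32.

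Among 37 nuclear receptors 6 were higher and 2 lower, with a median log2 fold change of 0.16. The share called was 21.6%, beside 10.3% of all protein coding genes. Ppara, which encodes PPAR-alpha, had 68.6 CPM, 84.7, 129, 62.7 and 137 in chow-fed mice and 89.1 to 262 (median 181) in HFD-fed mice, with overlap in 5 of 15 (0.85, SE 0.243, adjusted p = 0.0288). Its relative Ppard moved the other way, with 27.1 CPM, 41.6, 14.5, 30.7 and 15.6 against 6.25 to 24.8 (median 9.18), and 12 of 15 below all chow-fed mice (a 2.37-fold fall, SE 0.291 on the log2 scale, adjusted p = 0.00811). The estrogen-related receptor Esrrg rose (0.74, adjusted p = 0.0156) and the retinoic acid receptor Rarg fell (-0.73, adjusted p = 0.00243). Ppara and Esrrg were not called without chow mouse 1, 2 or 7 (adjusted p 0.0534 to 0.108), nor Ppard without chow mouse 2 (0.0565). The list held 4 calls without chow mouse 2, 5 without chow mouse 1 or 7, and only Rarg with the clock score as a covariate (-0.94, adjusted p = 0.0114).

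Stress genes were mostly lower where called, but few of these calls remained with the clock score as a covariate. The share called was 13% of NRF2 targets, 20% of chaperones, 14.8% of endoplasmic reticulum stress genes and 12.5% of immediate early genes. Beside these stand 10.3% of all protein coding genes. In the covariate fit the chaperones and the genes of endoplasmic reticulum stress held 0 calls (adjusted p = 0.338 for Chac1 and 0.727 for Atf4), the NRF2 targets 1, Ephx1, and the immediate early genes 2, Myc and Gadd45b, the last named after its values were seen. Of 23 targets of NRF2 and antioxidant enzymes 3 were lower and 0 higher, among them the epoxide hydrolase Ephx1, with 427 CPM, 424, 434, 367 and 427 in chow-fed mice and 181 to 411 (median 280) in HFD-fed mice (log2 fold change -0.59, SE 0.135, adjusted p = 0.00732), and 5 were called without fishmeal mouse 12 or salmon mouse 31. Of 20 heat shock chaperones 4 were lower, Hsph1 (-0.60), Bag3 (-0.56), Dnajb1 (-0.46) and Chordc1 (-0.41), with adjusted p-values from 0.0146 to 0.0272. Without chow mouse 1, which had the highest CPM of all 20 mice for each of these 4 genes, 0 were called (adjusted p 0.0782 to 0.257), and 2 were called without chow mouse 10. Hsph1 was also not called without chow mouse 5 (0.0771) or 10 (0.0571), nor Dnajb1 without chow mouse 10 (0.0504). In the response to endoplasmic reticulum stress and ATF4, 2 of 27 genes were higher and 2 lower, with 1 call left without chow mouse 1 or 7 or fishmeal mouse 20 and 2 without chow mouse 5 or fishmeal mouse 13. Chac1, which degrades glutathione, had 0.107 CPM, 0.656, 0.749, 1.04 and 0.56 in chow-fed mice and 0.752 to 6.4 (median 2.32) in HFD-fed mice (2.22, SE 0.499, adjusted p = 0.00626), while Atf4 itself was lower (-0.42, adjusted p = 0.0347, called in 14 of the 20 fits and 0.114 without chow mouse 7). Of 24 immediate early genes 3 were lower and 0 higher, with a median of -0.48, and 5 were called without chow mouse 1 or 2. Myc, a transcription factor of growth, had 2.81 CPM, 3.59, 4.93, 4.59 and 12.5 against 0.98 to 3.68 (median 1.63), and 14 of 15 HFD-fed mice lay below all chow-fed mice (-1.69, SE 0.263, adjusted p = 0.000255).

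Acute phase proteins were higher in HFD-fed mice, with 10 of 24 called higher, 0 lower and a median log2 fold change of 0.63. The share called higher was 41.7%, beside 4.74% of all protein coding genes. Serum amyloid A proteins, encoded by Saa1, Saa2 and Saa4, travel on high density lipoprotein, and lipocalin 2 (Lcn2) binds bacterial siderophores. Matches to the binding sequence of C/EBP factors, which drive many acute phase genes, were looked for in the 250 bases before the start of each gene, taken from the RefSeq promoter table for GRCm38.p6, in which 11511 of the 17120 tested genes were matched. RefSeq and the gene models used elsewhere here place some starts differently, by a median of 15 bases over the matched genes. The RefSeq start is the same for Saa1, 43 bases downstream for Saa2 and 513 bases downstream for Lcn2, so that the window of Lcn2 lies within the longer gene model and that of Saa2 runs into it. The windows of the 3 genes of this list with the largest changes are shown with their match to TTGCNNAA (either strand) in capitals, Saa1 at chr7:46742981-46743230 (minus strand), Saa2 at chr7:46751583-46751832 (plus strand) and Lcn2 at chr2:32387740-32387989 (minus strand).
Saa1: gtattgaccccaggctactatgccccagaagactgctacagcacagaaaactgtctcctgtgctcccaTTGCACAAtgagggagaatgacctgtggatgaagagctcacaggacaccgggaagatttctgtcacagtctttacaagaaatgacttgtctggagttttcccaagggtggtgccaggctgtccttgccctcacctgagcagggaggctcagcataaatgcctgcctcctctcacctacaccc
Saa2: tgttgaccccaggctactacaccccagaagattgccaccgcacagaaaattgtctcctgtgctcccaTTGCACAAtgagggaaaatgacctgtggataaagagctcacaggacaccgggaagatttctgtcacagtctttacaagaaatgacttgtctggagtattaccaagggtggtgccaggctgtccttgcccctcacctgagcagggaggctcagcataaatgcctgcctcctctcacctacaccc
Lcn2: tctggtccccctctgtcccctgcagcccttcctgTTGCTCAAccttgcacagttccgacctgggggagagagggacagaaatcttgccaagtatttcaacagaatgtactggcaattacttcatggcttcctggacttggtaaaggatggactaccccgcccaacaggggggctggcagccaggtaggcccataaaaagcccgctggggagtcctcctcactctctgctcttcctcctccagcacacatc
The windows of Saa1 and Saa2 shared 238 identical aligned bases. Among the 10 acute phase genes that were higher, 7 had a window, and TTGCNNAA was in 5 of these (71.4%), those of Lcn2, Saa1, Saa2, Saa4 and Steap4. It was in 11 of 19 windows of all tested acute phase genes (57.9%) and in 7.69% of 10756 windows of tested protein coding genes. A match to the strict pattern searched for NF-kappaB was in 1 of the 7 windows, that of Steap4 (1.37% of all). TTCNNNGAA, bound by STAT factors, was in 2 (6.08% of all). Looser forms of the NF-kappaB sequence were not searched. Whether the other windows, that of Saa1 included, lack such a form was therefore not tested. A match says only that the letters searched for are present.

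Saa1 had 19 CPM, 25.8, 18.9, 16.4 and 58.6 in chow-fed mice and 36.3 to 1400 (median 93.6) in HFD-fed mice, with 12 of 15 above all chow-fed mice (log2 fold change 2.71, SE 0.784, adjusted p = 0.0296 with edgeR). Saa2 had 10.9 CPM, 14.6, 12.3, 11 and 34.5 against 23.6 to 1108 (median 71.3), the log2 fold change being 3.08 (SE 0.839, adjusted p = 0.0217). Lcn2 had 0.916 CPM, 3.12, 4.23, 3.61 and 11.8 against 6.85 to 284 (median 18.5), the log2 fold change being 2.95 (SE 0.863, adjusted p = 0.0315). For all 3 genes salmon mouse 23 was far above every other mouse and chow mouse 10 was the highest chow-fed mouse, within the range of the HFD-fed mice. Without salmon mouse 23 the changes were smaller and had lower adjusted p-values, 1.77 for Saa1 (SE 0.333, adjusted p = 0.00158), 2.11 for Saa2 (adjusted p = 0.00127) and 1.99 for Lcn2 (adjusted p = 0.00644), and without chow mouse 10 that of Lcn2 was 3.62. Saa1 and Saa2 are 96.7% identical over 2448 bases. Their summed share of the counts was 0.00289% to 0.00952% in chow-fed mice and 0.006% to 0.237% in HFD-fed mice, with 13 of 15 above all chow-fed mice.

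Saa4 was steadier, with 320 CPM, 198, 226, 239 and 229 in chow-fed mice and 320 to 951 (median 417) in HFD-fed mice, and 14 of 15 above all chow-fed mice (0.95, SE 0.2, adjusted p = 0.00415). Of the abundant members, haptoglobin Hp, which binds free haemoglobin, had 915 CPM, 1381, 1794, 1548 and 2419 against 1456 to 6261 (median 2611), with overlap in 5 of 15 (0.79, SE 0.254, adjusted p = 0.0495). Hp was called in 6 of the 20 fits that left out 1 mouse, with 0.17 without chow mouse 1. Itih4, a plasma protein of the inter-alpha-trypsin inhibitor family, had 2339 CPM, 2258, 2679, 2694 and 2908 against 3139 to 6694 (median 3369), without overlap (0.54, SE 0.153, adjusted p = 0.0272). Steap4, a metalloreductase, was also higher (0.69, adjusted p = 0.0365). The calls of this list rested on several chow-fed mice, with 2 calls without chow mouse 1, 2 or 7 and 5 without chow mouse 5. Saa1, Saa2, Lcn2 and Itih4 were among those lost without chow mouse 1, 2 or 7 (adjusted p 0.0588 to 0.0956), Saa1 and Lcn2 also without chow mouse 5 (0.0656 and 0.0643), and Steap4 was called in 14 of the 20 fits, reaching 0.1 without chow mouse 2. With the clock score as a covariate 1 member was called, and the log2 fold changes were 1.71 for Saa1, 1.88 for Saa2 and 1.74 for Lcn2 (adjusted p 0.52 to 0.549). Neutrophils also contain Lcn2. Of 12 neutrophil markers 5 could be tested, all with negative log2 fold changes, the list summed to 5.53 to 7.77 CPM in chow-fed mice and 3.46 to 7.54 in HFD-fed mice, and the part of these cells in the Lcn2 values was not tested.

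**Figure D4:**
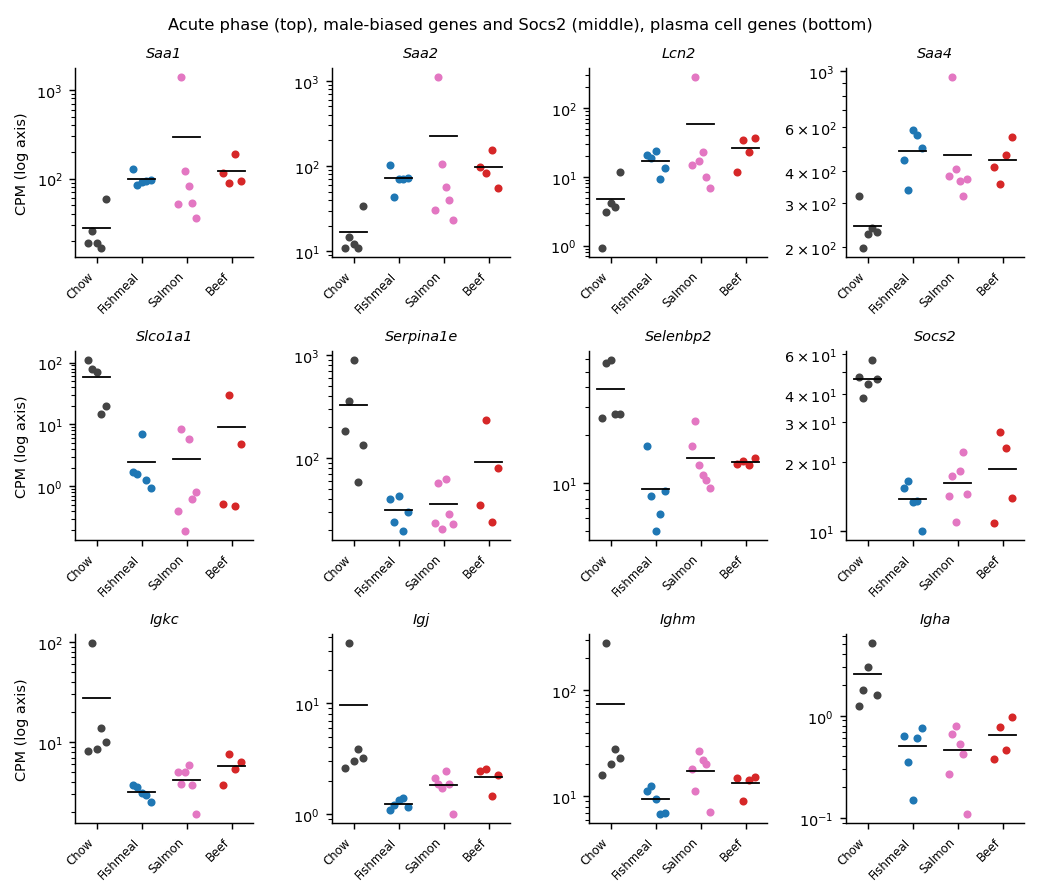
Each panel shows 1 gene with CPM on a log axis, a point for each mouse and a line at the mean of the group, for acute phase genes (Saa1, Saa2, Lcn2, Saa4), genes of sex-biased expression and growth hormone signalling (Slco1a1, Serpina1e, Selenbp2, Socs2) and immunoglobulin genes (Igkc, Igj, Ighm, Igha). A single salmon mouse stands above the rest for Saa1 (1400 CPM), Saa2 (1108) and Lcn2 (284), and a single chow-fed mouse for Igkc (98.1) and Ighm (281).

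Other secreted proteins moved less uniformly. Of 39 complement and coagulation factors 2 were higher, C4b (0.79, adjusted p = 0.0145, and 0.0638 without chow mouse 1) and F11 (0.41, adjusted p = 0.0486, called in 8 of the 20 fits and 0.179 without chow mouse 1), and C4b is 96% identical to C4a over 5378 bases. Without salmon mouse 23 this list held 6 calls and without chow mouse 1 or with the covariate it held 0. Among 30 serpins 5 were higher and 4 lower, with 5 calls without chow mouse 2 and 5 with the covariate. Serpina6, which encodes corticosteroid-binding globulin, had 415 CPM, 229, 346, 406 and 337 in chow-fed mice and 395 to 950 (median 573) in HFD-fed mice, with 12 of 15 above all chow-fed mice (0.77, SE 0.192, adjusted p = 0.0127, and 0.051 without chow mouse 2). The abundant Serpina3k had 4951 CPM, 6158, 6848, 4230 and 5122 against 1714 to 5141 (median 3086), with 13 of 15 below all chow-fed mice (-0.77, SE 0.188, adjusted p = 0.0114). Of 20 major urinary protein genes 1 was called, Mup21 (0.79, adjusted p = 0.0272), which is 95.2% identical to Mup3 over 686 bases, while 17 of the 20 had negative log2 fold changes with a median of -0.45. Mup21 was not called without chow mouse 2, 5, 7 or 10 (adjusted p 0.0551 to 0.0738), and the list held 2 calls without chow mouse 2, fishmeal mouse 16 or salmon mouse 23 or 31 and 0 with the covariate.

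Of 24 hepatokines, proteins that the liver sends to other organs, 4 were higher and 4 lower. The share called was 33.3%, beside 10.3% of all protein coding genes. Itih5, a matrix protein of the inter-alpha-trypsin inhibitor family, had 45.6 CPM, 43.1, 28.4, 41 and 31.7 in chow-fed mice and 10.7 to 19.2 (median 12.5) in HFD-fed mice, with no overlap (log2 fold change -1.53, SE 0.111, adjusted p = 1.11e-08). The covariate fit gave -1.33 for Itih5 (adjusted p = 5.64e-05). Tsku, or tsukushi, had 61.8 CPM, 46.6, 40.6, 30.2 and 24.5 against 3.57 to 26.8 (median 10.9), with 13 of 15 below all chow-fed mice (-1.66, SE 0.324, adjusted p = 0.00211). Inhba, a subunit of activin, also fell (-0.93, adjusted p = 0.000805), and Lect2, a chemotactic hepatokine, rose (0.59, adjusted p = 0.00547). The hepatokine list held 5 calls without chow mouse 1 and 2, Itih5 and Tsku, in the covariate fit. In metal handling 3 of 24 genes were higher and 1 lower, with 2 calls without chow mouse 2 and only Bmp6 called in the covariate fit. Hamp2, a paralogue of hepcidin, had 136 CPM, 85.5, 79.8, 226 and 150 against 160 to 648 (median 277) (1.2, SE 0.317, adjusted p = 0.0181, and 0.0653 and 0.0534 without chow mouse 2 and 5). Hemojuvelin, encoded by Hfe2, rose slightly (0.35, adjusted p = 0.00474) and Bmp6, an iron-sensing ligand from sinusoidal endothelium, fell (-0.67, adjusted p = 0.00109).

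Immunoglobulin transcripts, the product of plasma cells, were lower in HFD-fed mice. In bulk tissue fewer cells of a type and less RNA per cell cannot be told apart. Of 7 plasma cell markers 6 were lower, with a median log2 fold change of -2.28. Igkc, the kappa constant region, had 8.14 CPM, 98.1, 8.57, 13.9 and 10.1 in chow-fed mice and 1.9 to 7.67 (median 3.74) in HFD-fed mice, without overlap (-2.70, SE 0.394, adjusted p = 0.00013). Igj, the joining chain of IgA and IgM, had 2.63 CPM, 35.3, 3.03, 3.86 and 3.24 against 0.996 to 2.55 (median 1.71), without overlap (-2.48, SE 0.404, adjusted p = 0.000389). Igha, the IgA heavy chain, had a median of 1.8 CPM and up to 5.16 in chow-fed mice against 0.109 to 0.981 (median 0.529), without overlap (-2.28, SE 0.329, adjusted p = 0.000116). Chow mouse 2 stood far above the others for Igkc, Igj and Ighm, though not for Igha. Without it Igkc was 2.38-fold lower rather than 6.5-fold (adjusted p = 0.00283), and the log2 fold change was -0.89 for Igj (adjusted p = 0.0155) and -0.67 for Ighm, which was no longer called (adjusted p = 0.165). Over the 48 immunoglobulin gene segments that could be tested, 32 were lower, 0 higher and 46 negative, with a median of -1.98, and without chow mouse 2 these were 17 lower of 49 with a median of -0.97. All segments together took 0.0057% to 0.0722% of the counts in chow-fed mice and 0.00183% to 0.00501% in HFD-fed mice, and all 15 HFD-fed mice lay below all chow-fed mice. With the clock score as a covariate 2 of the 7 markers were called lower, Igkc and Igha.

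Other immune markers differed from list to list. The 20 markers of Kupffer cells and macrophages had 0 calls with edgeR, 4 at an unadjusted p under 0.05 and 3 calls with DESeq2, up to 2 calls when 1 mouse was left out (chow mouse 5 or fishmeal mouse 13), and a summed level of 473 to 1044 CPM in chow-fed mice and 485 to 871 in HFD-fed mice. Among monocytes and lipid-associated macrophages 1 of 12 markers was lower, the tetraspanin Cd9 (log2 fold change -1.2, adjusted p = 4.5e-05), and 1 higher, the lipid receptor Trem2 (1.44, adjusted p = 0.0105), which was chosen after its values were seen. This list held 4 calls without chow mouse 2. Of 11 NK cell markers 4 were lower (36.4%, beside 5.59% of all protein coding genes) and 0 higher, with a median log2 fold change of -0.40, and they summed to 6.9 to 10.5 CPM in chow-fed mice and 4.98 to 9.6 in HFD-fed mice. NK cells had 1 call without chow mouse 1 or 2 and 2 without chow mouse 10. Of 5 neutrophil markers 1 was lower, Mmp9 (-0.93), with 0 calls without chow mouse 1, 7 or 10, and of 15 MHC class II and dendritic cell genes 1 was lower, H2-DMb2 (-0.73, also named after its values were seen, like Mmp9), a call that was lost without any of 7 single mice, chow mouse 1, 2 or 7, fishmeal mouse 14, salmon mouse 25 or 26, or beef mouse 39. Among 36 chemokines and chemokine receptors 3 were lower and 1 higher, with 2 calls without chow mouse 1. Cxcl13, which attracts B cells, had 11.8 CPM, 2.31, 2.13, 8.34 and 3.11 against 0.185 to 3.62 (median 0.486), with 13 of 15 below all chow-fed mice (-2.42, SE 0.501, adjusted p = 0.00344). Of 32 interferon-stimulated genes only the peptide transporter Tap1 was called (0.55, adjusted p = 0.00518). The left-aside T and B cell list, whose values move with these, had 18 of 29 genes lower and a summed level of 29.2 to 40.5 CPM in chow-fed and 18.7 to 30.3 in HFD-fed mice, and its part in the immunoglobulin and chemokine values was not tested. In the covariate fit Cd9 was called (-0.92, adjusted p = 0.032), the NK cell, neutrophil, MHC class II, chemokine and interferon lists held 0 calls, and Cxcl13 had an adjusted p of 0.255.

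Markers of sinusoidal endothelium included 5 lower calls, while those of bile duct and matrix were near the background. Of 18 markers of liver sinusoidal endothelial cells, which line the hepatic capillaries, 5 were lower (27.8%, beside 5.59%) and 0 higher, with 14 of 18 negative and a median log2 fold change of -0.23, and their sum was 571 to 652 CPM in chow-fed mice and 451 to 645 in HFD-fed mice. Dnase1l3, an extracellular DNase, had 77.5 CPM, 67, 63.9, 62.3 and 63.9 against 43.8 to 66.3 (median 52.6), with 14 of 15 below all chow-fed mice (-0.38, SE 0.086, adjusted p = 0.00636). Ehd3 behaved alike (-0.38, adjusted p = 0.00939), and the Fc receptor gene Fcgr2b was lower (-0.34, adjusted p = 0.011, and 0.0762 without chow mouse 1). Without chow mouse 1 the list held 3 calls, and with the clock score as a covariate 0. Among 40 genes of stellate cells and matrix 2 were higher and 1 lower, with 1 call without chow mouse 1, 2 or 7. Fibronectin Fn1 was higher (0.42, adjusted p = 0.0442), called in 10 of the 20 fits and at 0.174 without chow mouse 1. Of 12 cholangiocyte markers only Sox9 was called (-0.61, adjusted p = 0.0301, lost without chow mouse 1, 2 or 7 at 0.0581 to 0.138). Of 7 red blood cell genes Alas2, the erythroid enzyme of haem synthesis, was higher (0.71, adjusted p = 0.00602), and all 7 were positive. In the covariate fit Sox9, Alas2 and Fn1 were not called (adjusted p 0.0782 to 0.743). Only 2 of 7 adipocyte and 2 of 11 exocrine pancreas markers were high enough to test, with 0 calls and 0 at an unadjusted p under 0.05 with edgeR and 0 calls with DESeq2.

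Hepatocytes divide their work along the liver lobule, and Wnt signals maintain the pericentral zone. Of 16 pericentral markers 3 were lower and 1 higher. Axin2, a feedback inhibitor of Wnt signalling, had 15.5 CPM, 21.4, 18.4, 14.4 and 20.5 in chow-fed mice and 5.78 to 14 (median 10) in HFD-fed mice, without overlap (log2 fold change -0.77, SE 0.157, adjusted p = 0.00305). The transcription factor genes Tbx3 (-0.79, adjusted p = 0.00148) and Tcf7 (-0.81, adjusted p = 0.000486) were lower as well. All 3 were also called with the clock score as a covariate (-0.95, -0.91 and -0.92). The pericentral list as a whole had a median of 0.08, with 9 of 16 positive. Of 18 periportal markers 1 was higher and 2 lower, E-cadherin Cdh1 having 56.3 CPM, 72.7, 37.1, 56 and 43.1 against 9.22 to 34.5 (median 23.2), without overlap (-1.26, SE 0.249, adjusted p = 0.00219, and -0.51 with adjusted p = 0.436 in the covariate fit, where 0 periportal markers were called).

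**Figure D5:**
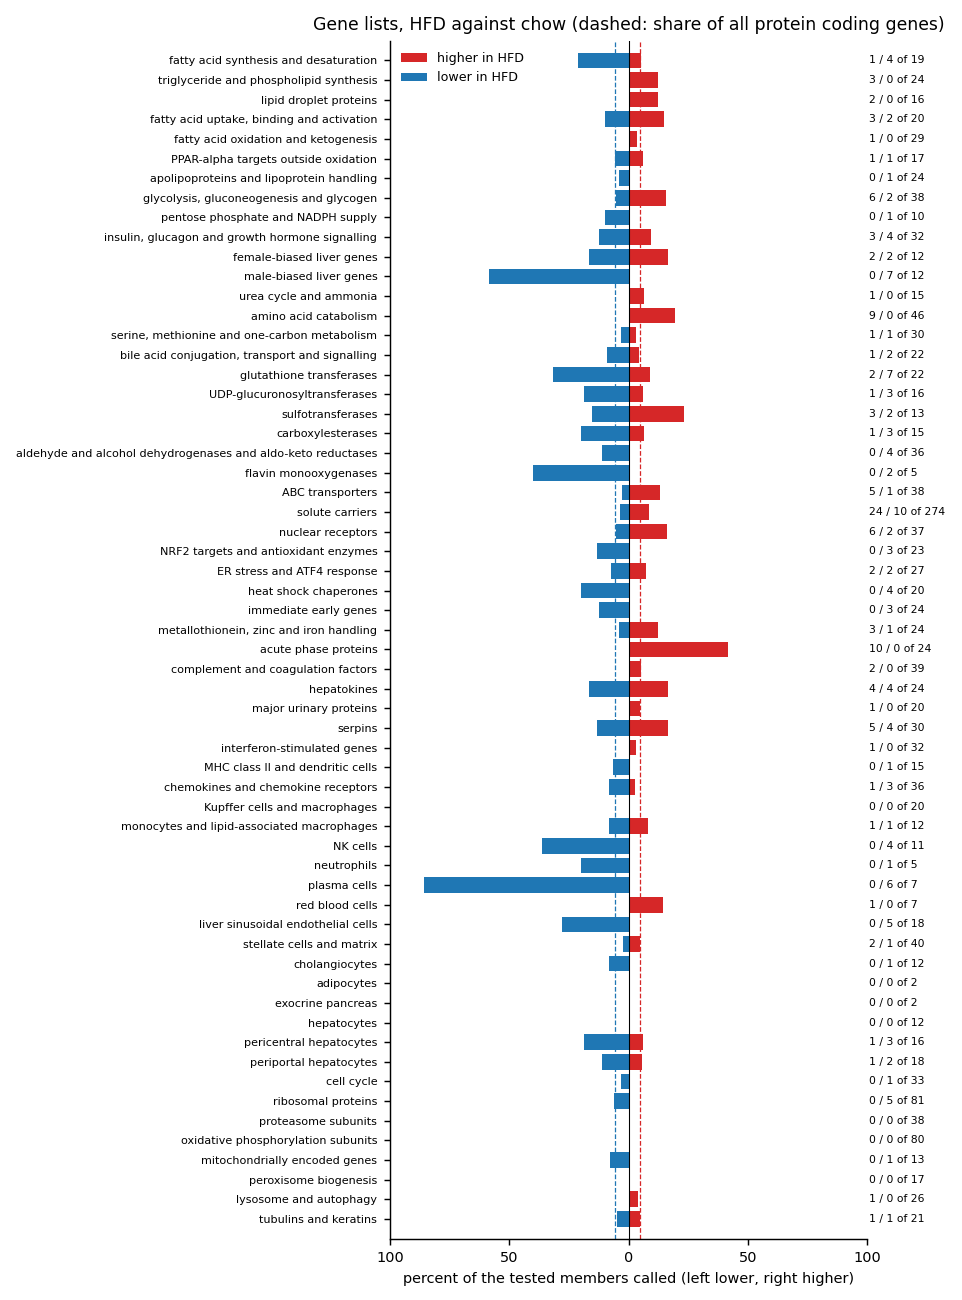
Bars give, for each of the 60 gene lists, the percent of tested members called higher (to the right) or lower (to the left) in HFD-fed mice. Dashed lines mark the 4.74% and 5.59% of all tested protein coding genes called in each direction, and plasma cell markers (6 of 7 lower), male-biased genes (7 of 12 lower) and acute phase proteins (10 of 24 higher) extend far beyond them.

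Genes of growth and protein turnover were near the background. Of 33 cell cycle genes 1 was lower, cyclin D1 (Ccnd1, -0.73, adjusted p = 0.0151, and 0.0557 and 0.0545 without chow mouse 5 and 10), and Ccnd1 shares an identical stretch of 818 bases with Oraov1. Among 81 ribosomal protein genes 5 were lower and 0 higher, including Rpl23 (-0.41, adjusted p = 0.0143) and Rps24 (-0.40, adjusted p = 0.0101), while 66 were negative with a median of -0.15. Rpl23 is 99.8% identical over 423 bases to Gm9794 (mean 112 CPM), so counting could have moved reads between them. The ribosomal count depended on single mice, with 19 calls when fishmeal mouse 12 was omitted, 2 for chow mouse 1 and 3 for chow mouse 5 or 7, and Rpl23 and Rps24 were lost without chow mouse 7 (0.064) and 1 (0.0628) in turn. The 38 proteasome subunits had 0 calls with edgeR, 2 at an unadjusted p under 0.05 and 0 with DESeq2. Of 26 lysosome and autophagy genes 1 was higher, Atg7, an enzyme needed for autophagosome formation (0.47, adjusted p = 0.00642). Of 21 tubulins and keratins 1 was higher and 1 lower, with Krt23 at 1.49 (adjusted p = 0.0294, lost without chow mouse 1, 2, 5 or 7 at 0.0678 to 0.0845). The covariate fit called 0 cell cycle, ribosomal and lysosomal genes.

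Of 13 mitochondrially encoded genes mt-Atp6 alone was called (log2 fold change -2.14, adjusted p = 0.000398), with 152 CPM, 509, 46.9, 601 and 407 in chow-fed mice and 44.8 to 180 (median 65.1) in HFD-fed mice. Its sequence is 100% identical over 678 bases to Gm10925 on chromosome 1. Summed over both genes the values were 118 to 715 CPM in chow-fed and 111 to 567 in HFD-fed mice, and they overlapped, so the change of mt-Atp6 alone cannot be told apart from the division of reads between the copies. In the covariate fit mt-Atp6 was not called (-1.46, adjusted p = 0.184) and mt-Co3, named after its values were seen, was the only call of the list, in the other direction (2.07, adjusted p = 0.0342).

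In absolute amount, measured as TPM (transcript values that allow for gene length), the 10 largest differences among called protein coding genes lay in plasma proteins and detoxifying enzymes, apart from Scp2, Hamp2 and mt-Atp6. Genes that were not called are not part of this ranking. Serpina3k went from 6875 TPM ± 1293 (SD, n = 5) to 3900 ± 1180 (SD, n = 15), Hp from 2602 ± 889 to 4311 ± 1597, Gstm1 from 2528 ± 395 to 1540 ± 327 and Hamp2 from 604 ± 275 to 1334 ± 615. Itih4 went from 1808 TPM ± 190 to 2521 ± 573, Serpina1e from 519 ± 521 to 73.9 ± 70.5, Sult3a1 from 577 ± 218 to 151 ± 77 and Serpina6 from 507 ± 100 to 837 ± 220. Scp2, a peroxisomal thiolase and sterol carrier, rose from 1428 TPM ± 173 to 1846 ± 233 (log2 fold change 0.42, adjusted p = 0.00765), and is 99.6% identical to Scp2-ps2 over 1371 bases. Itih4 was not called without chow mouse 1, 2 or 7 (adjusted p 0.0588 to 0.0864). The limit on Serpina1e from its close copies, given above, applies here too.

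Called genes that lie next to each other and moved the same way formed 7 runs of 3 genes outside the P450 family. How many such runs a random gene order would give was not tested. Syce2 (mean 0.447 CPM) overlaps Gcdh (mean 509 CPM) on the other strand, and Ces3b is 95.4% identical to Ces3a over 2046 bases. Counting could have moved reads between the members of each pair. Saa4, Saa1 and Saa2 on chromosome 7 and Syce2, Gcdh and Klf1 on chromosome 8 were higher. Lower runs were Pprc1, Nolc1 and Elovl3 on chromosome 19, Gimap4, Gimap6 and Gimap7, Srgap3, Thumpd3 and Setd5, and Clec2h, Klrb1c and BC035044 on chromosome 6, and Ces3b, Ces4a and Cbfb on chromosome 8. The Gimap genes encode GTPases of lymphocytes and endothelium, with log2 fold changes from -0.96 to -0.42. Nolc1, a nucleolar phosphoprotein, was the only gene of these runs besides Srgap3 that was lower in all 15 HFD-fed mice than in any chow-fed mouse (-0.62, SE 0.1, adjusted p = 0.000376). Without chow mouse 1, Pprc1, Elovl3, the 3 Gimap genes, Thumpd3, Setd5, Klrb1c, BC035044, Cbfb, Syce2, Gcdh, Saa1 and Saa2 were not called, with adjusted p-values from 0.0628 to 0.283. Without chow mouse 2 this held for Gimap7, Clec2h, Klrb1c, Ces3b, Ces4a, Setd5, Syce2, Gcdh, Saa1 and Saa2 (0.0522 to 0.113). Other calls of these runs were lost without chow mouse 5, 7 or 10 (0.0503 to 0.144), and Setd5 was called in 6 and Gcdh in 14 of the 20 fits.

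Among genes of other biotypes, the pseudogene Serpina4-ps1 had 58 CPM, 34.6, 24.8, 8.09 and 9.39 in chow-fed mice and 0.168 to 6.55 (median 1.47) in HFD-fed mice, without overlap (log2 fold change -4.14, SE 0.547, adjusted p = 4.36e-05). The pseudogene Gm15375 of the Ugt1a cluster, 95.1% identical to Ugt1a10 over 813 bases, had 2.84 CPM, 3.05, 5.09, 2.19 and 2.97 against 0.0526 to 0.54 (median 0.308), without overlap (-3.42, SE 0.25, adjusted p = 1.11e-08). Higher without overlap were Gm19619 (log2 fold change 1.77), Gm12265 (2.21-fold) and Gm34983 (log2 fold change 1.05), with adjusted p-values from 0.000253 to 0.00109. Each of these 5 genes was called in all 20 fits that left out 1 mouse.

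The 3 HFD groups were also compared with each other, to see how far the pooled group was of a kind. Of 13651 protein coding genes 17 differed among fishmeal, salmon filet and beef (0.125%), and with the long non-coding RNA 1810008I18Rik this made 18 genes, of which 12 belong to cholesterol synthesis and 12 were also called in HFD-fed against chow-fed mice. Outside cholesterol synthesis they included 1810008I18Rik, Strc, Nfe2, Sgsm1 and Acss2. Acss2 had a mean of 75.4 CPM ± 22.2 (SD, n = 5) with fishmeal, 238 ± 90.3 (SD, n = 6) with salmon filet and 163 ± 57.3 (SD, n = 4) with beef, beside 401 ± 162 (SD, n = 5) with chow. Depending on the mouse left out, 7 to 24 genes differed among the HFD groups, with 7 without fishmeal mouse 13 or 20, 8 without fishmeal mouse 16, 11 without salmon mouse 26 and 10 without salmon mouse 27. With mouse 31 counted as beef 17 protein coding genes differed.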

How the data were processed

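RNA was prepared from 1 liver per mouse with a strand-specific mRNA protocol. Per the paper's methods and the submitters' processing notes, the authors trimmed reads with BBDuk, mapped them with HISAT2 1.2.1 and counted them with featureCounts 1.4.6-p1; the strand and multi-mapping settings are not given in the sources used here. The deposited counts are not normalised and cover 55487 gene identifiers. The deposited TPM values, which the authors scaled to gene length and library size, served for levels between genes and for limma. Positions and names follow GENCODE M21 on GRCm38.

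Counts were filtered with filterByExpr (minimum count 10), TMM-normalised and fitted with edgeR 4.0 in R 4.3 (HFD against chow, no covariate). The test for changes beyond 1.5-fold was glmTreat. Alternatives used DESeq2 1.42, limma 3.58 and other settings given in the closing section. Tests were tried on simulated data. Members of 60 gene lists were counted per direction. Named genes are the 12 per direction with the largest change among called genes without overlap, up to 4 called members per list (or the 2 with the lowest p), the 10 largest TPM differences among called genes, the longest runs of neighbours, the 3 leading genes of other biotypes per direction and 10 genes that differed among the HFD groups, where the rule is by change with a minimum mean CPM of 1. A few genes included in the counts are not reported here by name. The comparison and lists were chosen with earlier results of these data known. Copies were sought with blastn at 95% identity or more over at least 300 bases, and 34 named genes had one. The 41 replicate pairs each differed by more than counting noise (chi-square per gene 31.9 to 414), and none was merged. Each p-value weighs a difference between groups against the variation between these mice, taken as independent. Cages were not part of any test.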

Additional observations from a re-analysis of the deposited data

Results flagged for a closer look

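In 51 of 720 gene and diet group pairs looked at, with 4 to 6 mice each, the highest or the lowest mouse stood apart from the others by more than Dixon's limit. Chance alone does so in about 1 in 20 groups, and the values are given in CPM with that of the next mouse. Chow mouse 1 was highest for Tdo2 (1344, next 878), Bag3 (57.2, next 32.8) and BC035044 (1.11, next 0.573) and lowest for Abcc4 (6.08, next 7.43). Chow mouse 2 was highest for Igj (35.3, next 3.86), Igkc (98.1, next 13.9) and Ighm (281, next 27.8). Chow mouse 5 was highest for Sult3a1 (448, next 233). Chow mouse 7 was highest for Rpl23 (280, next 238) and lowest for Ephx1 (367, next 424). Chow mouse 10 was highest for Myc (12.5, next 4.93), Saa2 (34.5, next 14.6) and Saa1 (58.6, next 25.8). Fishmeal mouse 12 was highest for Fitm1 (18.6, next 9.92), Gpt (374, next 268), Bag3 (34.5, next 22.4), Saa1 (127, next 95.4) and Gcdh (659, next 538). Fishmeal mouse 13 was highest for Cxcl13 (3.62, next 0.63) and Lyz2 (75.9, next 47.3). Fishmeal mouse 14 was highest for Slco1a1 (7.06, next 1.7) and lowest for Sult2a3 (9.58, next 49.9). Fishmeal mouse 16 was highest for Ppp1r3c (231, next 102). Fishmeal mouse 20 was highest for Agpat9 (20.3, next 17.5) and Pfkfb3 (8.48, next 5.7) and lowest for Cd36 (188, next 230). Salmon mouse 23 was highest for Steap4 (366, next 147), Saa2 (1108, next 105), Lcn2 (284, next 23.1), Saa1 (1400, next 121), Saa4 (951, next 408), C4b (2936, next 1728), Hp (6261, next 2830) and Itih4 (6694, next 3417). Salmon mouse 25 was highest for Serpina6 (950, next 573), Atp5sl (48.2, next 34.2) and Krt23 (9.69, next 2.74) and lowest for Sox9 (2.71, next 5.98). Salmon mouse 27 was highest for Alas2 (40.3, next 26). Beef mouse 32 was highest for Acsl4 (66.6, next 41.5), Pdk4 (25.6, next 9.33), Sult1e1 (11, next 1.42), Akr1c19 (46.6, next 33) and Fabp4 (14.1, next 7.2) and lowest for Gpt (189, next 290) and Abcg5 (57.9, next 101). Beef mouse 35 was highest for Slco1a1 (30.4, next 4.76) and Ppard (11.7, next 6.68) and lowest for Steap4 (102, next 157) and Ighm (9.12, next 14.2). Beef mouse 40 was highest for Kcnk10 (5.28, next 4.31).

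Among the 3 HFD groups 18 genes differed by edgeR's quasi-likelihood test (adjusted p in brackets). In cholesterol synthesis they included Lss (0.000646), Fdps (0.0021), Fdft1 (0.00226), Sqle (0.00226), Msmo1 (0.00349), Dhcr7 (0.00613), Nsdhl (0.00873), Idi1 (0.012), Cyp51 (0.0146), Pmvk (0.0224) and Hsd17b7 (0.0224). Others were 1810008I18Rik (0.0146), Strc (0.0224), Nfe2 (0.0224), Sgsm1 (0.0343) and Acss2 (0.0497), with a mean of 2.92 CPM on chow, 0.271 (fishmeal), 1.57 (salmon filet) and 0.738 (beef) for Nfe2.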

How the results depend on the processing

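None of the 169 called genes chosen by the naming rule changed sign under an alternative, but with the clock score as a covariate 1405 of the 1415 called genes kept theirs and the median log2 fold change turned in 14 of 60 lists, all between -0.26 and 0.26. The 1415 genes called (649 higher, 766 lower) became 230 with the clock score as a covariate (121 higher, 109 lower), 2218 with offsets for GC content and length (1073 and 1145) and 1008 with limma on log2(TPM + 1) (333 and 675); the cause was not tested. The count stayed within 1.5 times of 1415 with DESeq2 (1858), DESeq2's size factors (1427), upper quartile scaling (1425), other filters (1111 and 1402), protein coding genes alone (1498) and 4 separate groups (1446). Leaving out 1 mouse gave 816 to 1619 genes, 364 to 747 higher and 423 to 872 lower. The 89 genes beyond 1.5-fold were 351 beyond 1.2-fold (145 higher, 206 lower) and 28 beyond 2-fold (11 and 17), and without 1 mouse 53 to 98 (19 to 36 higher, 34 to 62 lower), the lowest without chow mouse 2. The 17 genes that differed among HFD groups were 46 with DESeq2's likelihood ratio test and 7 to 24 without 1 mouse. Of the 169 genes 119 were no longer past the threshold with the covariate. With 5 chow-fed mice, small changes depend on each of them. No paired analysis was possible because each mouse has its own number and none is shared between groups.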
